A study of Mus musculus with 2 samples.

Results

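Interferon-stimulated genes are described here in myeloid-derived suppressor cells (MDSC) made in culture from mouse bone marrow. The list held 34 genes chosen by symbol, of which 32 were in the features table of 32285 genes and Mx1 and Mx2 were not. Of the 32 genes found, 28 had at least 100 unique molecular identifiers (UMIs, 1 per captured RNA molecule) summed over both libraries. Marrow of female C57BL/6 mice aged 10 weeks was grown for 4 days in 50 ng/mL of GM-CSF and 50 ng/mL of IL-6, together with either 1.5 µmol/L dabrafenib (DAB) or its vehicle DMSO. Dabrafenib is an inhibitor of the kinase BRAF, and the study asked how it acts on MDSC differentiation through GCN2, a kinase that senses uncharged tRNA. Both cultures carried the same genotype and cytokines, and 1 library was made from each, so no test between the conditions was possible. How many mice gave the marrow is not stated in the sources used here, and the cells were washed and strained, with no sort or gate described.

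Type I and type III interferons bind receptors that act through the kinases JAK1 and TYK2. These kinases phosphorylate STAT2, which acts with IRF9 in a complex that binds the interferon-stimulated response element in the promoters of target genes. The products bind viral RNA, edit or degrade nucleic acids, tag proteins or shut the signal down. Myeloid cells hold a low level of many of these genes without infection, and plasmacytoid dendritic cells are the best known source of type I interferon.

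The kept cells numbered 9023 for DMSO, with 92743773 UMIs and a median of 7547 UMIs per cell, and 10460 for DAB, with 141864209 UMIs and a median of 9534. The myeloid genes S100a8 and S100a9 stood at 16545 to 21254 CPM (UMIs of a gene scaled to the same total in every library or class) over the kept cells of a library, and Itgam, which encodes CD11b, at 428 CPM in DMSO and 551 in DAB. Of the barcodes deposited, 152 occurred in both libraries. Cells were grouped into 26 clusters, built without the interferon genes, and 17 clusters were named from markers. The makeup differed: chemokine-high granulocyte-like cells were 3.86% of DMSO and 16.8% of DAB cells, mature PMN-like cells (polymorphonuclear, the neutrophil line) were 5.93% and 14.4%, and intermediate granulocyte-like cells were 16.8% and 9.60%. Ratios over all cells were therefore also computed with every class at its weight in both libraries pooled. Plasmacytoid dendritic cells formed no cluster, and the sum of 5 of their markers was 4.63 CPM in DMSO and 3.30 in DAB.

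The promoters of the list were searched for the core of the response element, which is GAAA repeated after a gap of any 2 bases, on either strand (TTTC, 2 bases, TTTC), in windows from 250 bases before to 50 bases after the start site, with sequences from RefSeq on GRCm38. Of the 32 genes found, 27 were in that table. The motif was in the window of 14 of these 27 genes (51.9%) and of 3.99% of all 27025 genes. It occurred in the windows of Isg15, Ifit1, Ifit3, Ifit3b, Rsad2, Oas1a, Oas3, Stat2, Bst2, Ddx58, Ifih1, Slfn5, Slfn8 and Trim30a. These letters were not in the windows of Irf7, Irf9, Slfn4, Oasl1, Oasl2, Ifit2, Cmpk2, Herc6, Ifi35, Ifi44, Ifi47, Isg20 and Xaf1. The last bases of the Stat2 and Ifit3b windows and of 1 Trim30a window were not found in the first part of an annotated transcript. The place of the motif is therefore less sure there. For the other windows this search does not show that the start sites are the same. The annotated Irf7 gene begins at 141266481, inside the stretch given for it below. A match is a run of letters and not a measured binding site. To show the element and its absence, 100 bases upstream of the start site are given for 4 genes with the motif, of different roles, and for 2 without it that recur in the results. The stretch runs from 111 to 12 bases before the start for Isg15, 130 to 31 for Ifit1, 165 to 66 for Rsad2, 250 to 151 for Stat2, and 100 to 1 for Slfn4 and Irf7. Capitals mark the motif, and overlapping matches run together.
Isg15 (chr4:156200830-156200929, minus strand): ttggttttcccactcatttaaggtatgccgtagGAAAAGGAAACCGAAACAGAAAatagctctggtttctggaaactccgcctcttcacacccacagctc
Ifit1 (chr19:34640759-34640858, plus strand): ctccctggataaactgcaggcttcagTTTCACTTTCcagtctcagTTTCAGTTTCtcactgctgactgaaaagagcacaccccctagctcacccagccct
Rsad2 (chr12:26456518-26456617, minus strand): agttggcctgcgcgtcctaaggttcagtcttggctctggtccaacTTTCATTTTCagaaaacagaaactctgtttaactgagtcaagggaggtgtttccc
Stat2 (chr10:128270248-128270347, plus strand): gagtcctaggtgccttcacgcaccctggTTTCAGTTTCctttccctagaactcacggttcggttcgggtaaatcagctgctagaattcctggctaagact
Slfn4 (chr11:83175086-83175185, plus strand): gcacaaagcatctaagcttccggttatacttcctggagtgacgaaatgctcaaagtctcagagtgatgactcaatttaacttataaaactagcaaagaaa
Irf7 (chr7:141266425-141266524, minus strand): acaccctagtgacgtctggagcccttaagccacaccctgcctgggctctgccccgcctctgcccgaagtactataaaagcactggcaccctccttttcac
By the calls over all cells, the motif was in 2 of the 3 genes lower in DAB that were in the table and in 10 of the 20 within the limit, and the gene higher in DAB, Usp18, was not in the table.

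Over all cells, most interferon-stimulated genes stood within the limit between DMSO and DAB and a few did not. Some ratios are given with an exact 95% interval, which covers counting error only. A gene was called where its log2 ratio of DAB over DMSO, on CPM, was at least 0.5 in size, whatever its interval. By this rule 4 members were lower in DAB (Ifi27l2a, Slfn4, Stat2 and Rsad2), 1 was higher (Usp18) and 23 lay within the limit. Of all 13306 genes with at least 100 UMIs, 16.5% were lower and 14.3% were higher by the same rule, so the 4 lower members (14.3% of 28) were near the background share and the 1 higher member (3.57%) was below it. The median ratio of the members was -0.10, against -0.01 over all genes. With classes at their pooled weight the member median was -0.03, and with each cell weighing the same it was -0.04. Of the 28, 20 lay below 0 and 8 above in the main values. All genes lay about evenly on both sides, as their median near 0 shows.

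**Figure D1:**
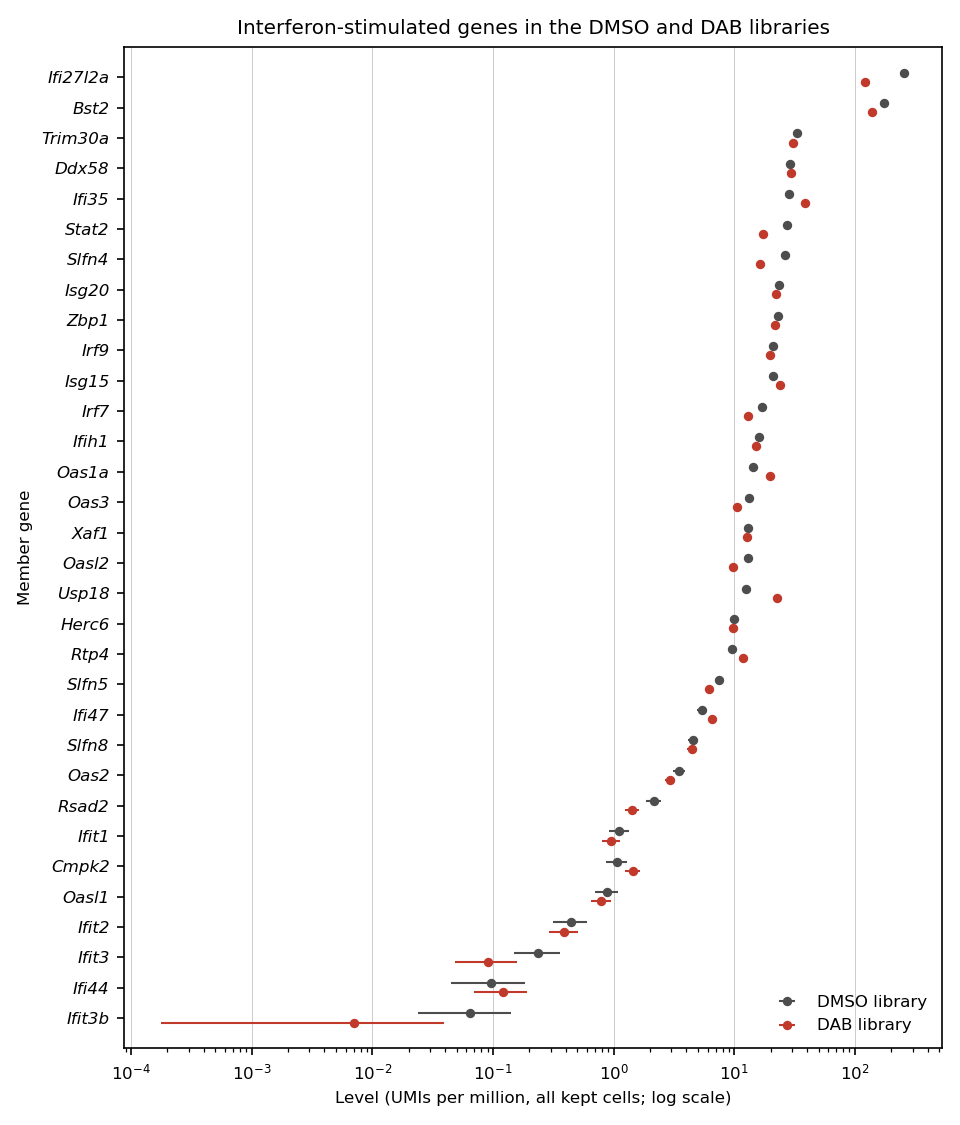
Level of each of the 32 members found, in CPM over all kept cells (log scale), in the DMSO library (grey) and the DAB library (red), with exact 95% Poisson intervals. Ifi27l2a, with the most UMIs over both libraries, stood at 256 in DMSO and 121 in DAB, Usp18 was higher in DAB, and the members under 1 CPM have wide intervals.

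Ifi27l2a (chromosome 12, 103442167 to 103443680 of GRCm38, minus strand) encodes a small membrane protein of unsettled function and gave the most UMIs of the list over both libraries, though Bst2 gave more in DAB. Its level was 256 CPM in DMSO and 121 CPM in DAB, a log2 ratio of -1.08 (-1.11 to -1.05), or 2.12-fold higher in DMSO. The ratio was -0.78 with classes at their pooled weight. Ifi27l2a was 31.7% of all member UMIs in DMSO and 19.2% in DAB. The summed level of the 32 members was 807 CPM (802 to 813) in DMSO and 629 CPM (625 to 633) in DAB, a log2 ratio of -0.36. Without Ifi27l2a the summed ratio was -0.12, and without Ifi27l2a and Bst2, the other member of high count, it was -0.03. The lower sum in DAB was thus carried by these genes, and the remaining 30 stood at 378 CPM in DMSO and 370 CPM in DAB.

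Slfn4 (chromosome 11, 83175186 to 83190216, plus strand) belongs to the Schlafen family and is expressed by monocytes and neutrophils. It stood at 26.3 CPM (25.3 to 27.4) in DMSO and 16.3 CPM (15.7 to 17.0) in DAB, with a log2 ratio of -0.69 (-0.77 to -0.60). The other Schlafen genes of the list lay within the limit, Slfn5 at -0.26 and Slfn8 at -0.04.

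Of the transcription factors, Stat2 (chromosome 10, 128270559 to 128292849, plus strand) differed most. It was 27.5 CPM in DMSO and 17.2 CPM in DAB, a log2 ratio of -0.68 (-0.76 to -0.60). The ratio was -0.50 when classes kept their pooled weight, just inside the limit before rounding, and -0.44 when each cell weighed the same, so the call was lost in both. Irf9, the partner of STAT2, stood at 21.1 CPM and 19.8 CPM (log2 ratio -0.09). Irf7, which drives the later type I interferon genes, stood at 16.9 CPM in DMSO and 12.9 CPM in DAB (-0.39, -0.49 to -0.29).

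Usp18 (chromosome 6, 121245906 to 121270917, plus strand) encodes the protease that removes ISG15 from proteins and also blocks the type I interferon receptor. It was the 1 member called higher: 12.4 CPM (11.7 to 13.1) in DMSO and 22.7 CPM (22.0 to 23.5) in DAB, a log2 ratio of 0.88 (0.78 to 0.97), or 1.84-fold. With classes at their pooled weight the ratio of Usp18 was 0.67. Isg15, the ubiquitin-like protein that USP18 removes, was 21.0 CPM in DMSO and 23.9 CPM in DAB (0.18). Herc6, the mouse ligase for ISG15, was 9.88 CPM and 9.73 CPM (-0.02). The 3 genes of this system thus had unlike ratios.

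The OAS proteins make or relate to 2′-5′ oligoadenylate, the activator of RNase L. Oas1a stood at 14.2 CPM in DMSO and 19.7 CPM in DAB, a ratio of 0.47 (0.38 to 0.57) just inside the limit. Oas2 (-0.26), Oas3 (-0.34), Oasl1 (-0.15) and Oasl2 (-0.42) lay below 0. With each cell weighing the same, Oasl1 was at 0.53 and Oasl2 at -0.58, both past the limit, and with classes at their pooled weight Oas1a passed it at 0.53. Oas1a has near-identical neighbours, among them Oas1g, so reads of the copies may be split or lost between them.

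The cytosolic sensors of RNA and DNA were within the limit. Ddx58, which encodes RIG-I, was 29.0 CPM in DMSO and 29.7 CPM in DAB (0.04). Ifih1, which encodes MDA5, was 16.1 CPM and 15.1 CPM (-0.10). Zbp1, a sensor of Z-form nucleic acid, was 23.2 CPM and 21.8 CPM (-0.09). None of the 3 was called.

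Among the other effectors, Bst2, which encodes tetherin, stood at 173 CPM in DMSO and 138 CPM in DAB (-0.33, -0.36 to -0.30). With classes at their pooled weight the ratio of Bst2 was -0.15, and with each cell weighing the same it was -0.19. Ifi35 stood at 28.5 CPM and 38.5 CPM (0.43, 0.36 to 0.50), and Rtp4 at 9.50 CPM and 11.7 CPM (0.30). Ifi47, an immunity-related GTPase, had a ratio of 0.28. Trim30a (-0.10), Isg20, an exonuclease (-0.10), and Xaf1 (-0.03) were close to 0. Rsad2, which encodes viperin, was 2.16 CPM in DMSO and 1.42 CPM in DAB (-0.60, -0.89 to -0.31), and its neighbour Cmpk2, a nucleotide kinase, was 1.07 CPM and 1.45 CPM (0.44, 0.08 to 0.80).

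The IFIT genes lie side by side on chromosome 19 and bind foreign RNA ends. They were scarce in both cultures. Ifit1 had 103 UMIs in DMSO and 135 in DAB (1.11 CPM and 0.952 CPM, log2 ratio -0.22, -0.60 to 0.16). Ifit2 had 41 and 55 UMIs, Ifit3 had 22 and 13, Ifit3b had 6 and 1, and Ifi44 had 9 and 17, all under the minimum. Ifit3 and Ifit3b are near-identical copies, so counts of each are uncertain.

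**Figure D2:**
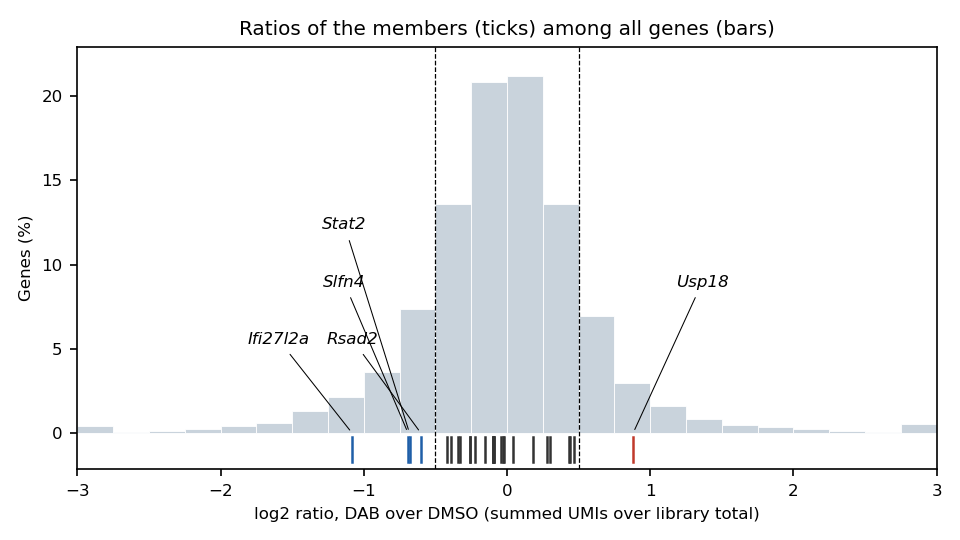
Percent of the 13306 genes in each bin of the log2 ratio of DAB over DMSO (bars, the outer bins holding all genes beyond them), with a tick below for each of the 28 members, blue where lower, red where higher and black within the limit of 0.5 (dashed lines). The members lie between -1.08 and 0.88, around a median of -0.10.

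The genes that make, receive and transmit interferon were counted from lists chosen for this description. Of 21 interferon genes, 15 had no UMI in either library, and the list held 8 UMIs in DMSO and 11 in DAB, over 92743773 and 141864209 UMIs. Ifnb1, the first type I interferon induced in many cells, had 0 UMIs in DMSO and 1 in DAB. The shares called lower in the receptor, kinase and sensor lists were near the 16.5% of all genes, so the genes named are a description of the pathway. No gene of these short lists was called higher, where 14.3% of all genes were. Of 6 receptor genes, 1 was lower by the rule, Ifnlr1, the chain of the type III receptor, at 7.03 CPM in DMSO and 3.45 CPM in DAB (-1.03). The type I receptor genes Ifnar1 (-0.30) and Ifnar2 (-0.38) lay within the limit. Of 13 kinases, factors and inhibitors, 2 were lower and none was higher. These were Irf8, a factor of the monocyte and dendritic line, at 50.9 CPM and 22.4 CPM (-1.19, and -0.48 with classes at their pooled weight), and Socs3, an inhibitor of cytokine signaling, at 70.0 CPM and 41.3 CPM (-0.76, and -0.42). Of the kinases, Jak1 had a ratio of 0.08 and Tyk2 of -0.02. Of 14 sensors and adaptors measured, 2 were lower and none higher. One was Ticam1, the adaptor of TLR3 and TLR4, at 13.3 CPM and 8.86 CPM (-0.58), and the other was Tlr8 (-1.14), which lay under 5 CPM and is named after its values were seen.

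A wider list of 76 further interferon-stimulated genes had 13 lower and 12 higher, near the 16.5% and 14.3% of all genes, and a median of -0.03. Of those with at least 5 CPM in a library, the 6 lowest ratios were Ccl5, a chemokine (-1.80), Cd274, which encodes PD-L1 (-1.10), Ifi204 (-1.02), Ddx60 and Trim25 (each -0.82) and Samhd1 (-0.68). Ccl5 was -0.60 and Cd274 -1.04 with classes at their pooled weight. The 6 highest were Oas1g (1.14), Fcgr1 (1.04), Nmi (0.94), Ifi207 (0.69), Ifitm1 (0.66) and Slfn1 (0.65). Ifitm1, a membrane protein that blocks virus entry, was the most abundant of the 6, at 5652 CPM in DMSO and 8913 CPM in DAB.

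The members were then set out by cell type. A class is one or more clusters that share a name, and 6 classes had at least 200 cells of each library. Most members were highest in granulocyte-like classes, which are also most of the 6 classes compared. The share of all genes highest in each class was not computed, so the counts that follow only describe the list. Of the 28, 12 were highest in intermediate granulocyte-like cells in DMSO and 17 in DAB, 8 and 5 were highest in mature PMN-like cells, and 3 in each library in mature monocyte-like cells. The same class was highest in both libraries for 21 of the 28. Of the genes highest in intermediate granulocyte-like cells, the interval there was clear of that of the next class for 3 of the 12 in DMSO and 9 of the 17 in DAB.

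Slfn4, Oasl2, Irf7, Rtp4, Oas3 and Ifi27l2a were higher in intermediate granulocyte-like and mature PMN-like cells than in both monocyte-like classes, in each library. The other granulocyte-like classes were not always above the monocyte-like ones. Slfn4 stood at 79.0 CPM in intermediate granulocyte-like and 81.5 CPM in mature PMN-like cells of DMSO, and at 1.38 CPM in mature monocyte-like cells. In B cell-like cells, which should lack it, Slfn4 was at 4.03 CPM (3 UMIs, 0.831 to 11.8) in DMSO and 0.865 CPM (1 UMI, 0.0219 to 4.82) in DAB. The monocyte value of 1.38 CPM lay within that wide DMSO interval, so it was not told apart from background. Irf7 was 39.6 CPM in intermediate granulocyte-like and 6.22 CPM in mature monocyte-like cells of DMSO. Of the 6 classes, Stat2, Bst2 and Usp18 were highest in mature monocyte-like cells in both libraries. Bst2 was 279 CPM there and 47.2 CPM in intermediate granulocyte-like cells of DMSO, and Stat2 was 51.1 CPM and 19.4 CPM.

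**Figure D3:**
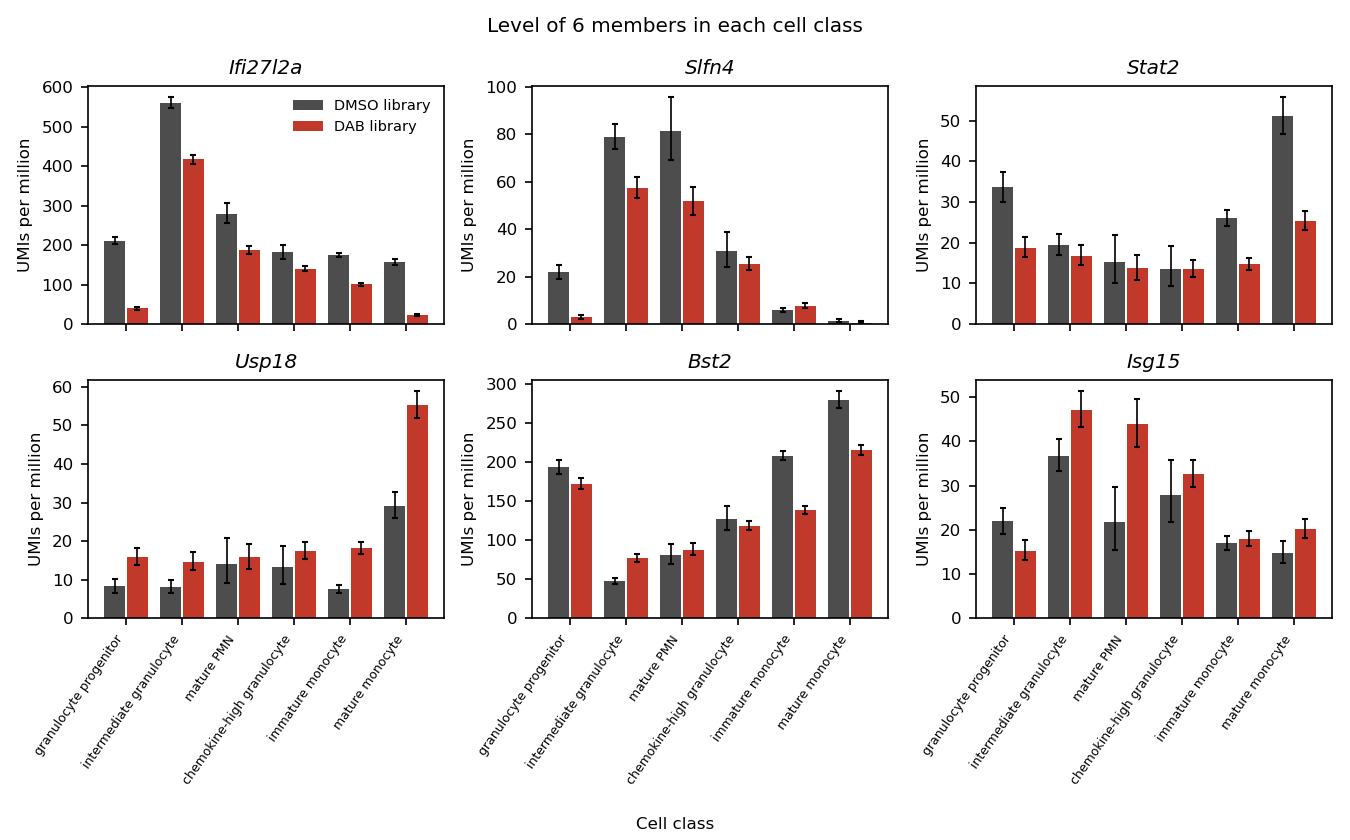
Level of 6 members in the 6 classes, in CPM of the class, for the DMSO library (grey bars) and the DAB library (red bars) with exact 95% Poisson intervals. Ifi27l2a was lower in DAB in each class shown, Stat2, Usp18 and Bst2 were highest of the 6 in mature monocyte-like cells, and Slfn4 was highest in mature PMN-like cells of DMSO and intermediate granulocyte-like cells of DAB.

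Ifi27l2a was lower in DAB in each of the 6 classes, but to unequal extents. In mature monocyte-like cells it was 157 CPM (149 to 165) in DMSO and 24.1 CPM (21.8 to 26.5) in DAB, a log2 ratio of -2.70 (-2.86 to -2.55). The ratio lay between -2.79 and -2.47 in the other clusterings. In granulocyte progenitor-like cells Ifi27l2a was 211 CPM and 40.5 CPM (-2.38), against -1.06 to -0.20 in the 3 other clusterings with enough cells. In immature monocyte-like cells it was 176 CPM and 101 CPM (-0.80), in mature PMN-like cells 280 CPM and 188 CPM (-0.58), in intermediate granulocyte-like cells 561 CPM and 418 CPM (-0.43) and in chemokine-high granulocyte-like cells 182 CPM and 141 CPM (-0.37). The mature PMN-like ratio lay between -0.53 and -0.25 in the other clusterings. In 17 clusters both libraries had 100 cells or more. Of these, Ifi27l2a was called lower in 12 and stood below 0 in 16, the exception being the B cell-like cluster. These counts have no background share. Of the 6 classes, intermediate granulocyte-like cells had the highest level in both libraries, and in DAB the B cell-like cells stood above them at 469 CPM.

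Stat2 was called lower in DAB in the monocyte-like and granulocyte progenitor-like classes and not in the other granulocyte-like ones. It was 51.1 CPM in DMSO and 25.3 CPM in DAB in mature monocyte-like cells (-1.01, -1.20 to -0.83) and 26.1 CPM and 14.7 CPM in immature monocyte-like cells (-0.83). In granulocyte progenitor-like cells it was 33.6 CPM and 18.8 CPM (-0.83). In chemokine-high granulocyte-like cells it was 13.6 CPM in both (0.00, -0.55 to 0.59), in mature PMN-like cells 15.2 CPM and 13.8 CPM (-0.14), and in intermediate granulocyte-like cells 19.4 CPM and 16.8 CPM (-0.21). Over the other clusterings the chemokine-high value reached -0.50 and the mature PMN-like value -0.45. Slfn4 was called lower in 8 of the 12 clusters where it could be measured, a count without a background share. By class it was called lower in mature PMN-like cells (-0.66) and granulocyte progenitor-like cells (-2.94, but -0.57 to 1.32 in the other clusterings). It lay within the limit in intermediate granulocyte-like (-0.46), chemokine-high granulocyte-like (-0.29) and immature monocyte-like cells (0.41, 0.10 to 0.73).

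Usp18 was higher in DAB in each class, and called in 4 of the 6. It was 29.1 CPM in DMSO and 55.2 CPM in DAB in mature monocyte-like cells (0.92, 0.73 to 1.12), 7.59 CPM and 18.2 CPM in immature monocyte-like cells (1.26) and 8.19 CPM and 14.7 CPM in intermediate granulocyte-like cells (0.85). In chemokine-high granulocyte-like cells the ratio was 0.41 (-0.14 to 0.99), and in mature PMN-like cells 0.16 (-0.48 to 0.85, and -0.32 to 0.48 over the other clusterings). Of the 6 classes, Stat2 and Usp18 were thus both highest in mature monocyte-like cells and had opposite directions there. Over clusters, Usp18 was called higher in 9 of 14 and lower in none, with 3 of the 14 below 0. No background share was computed for these counts.

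**Figure D4:**
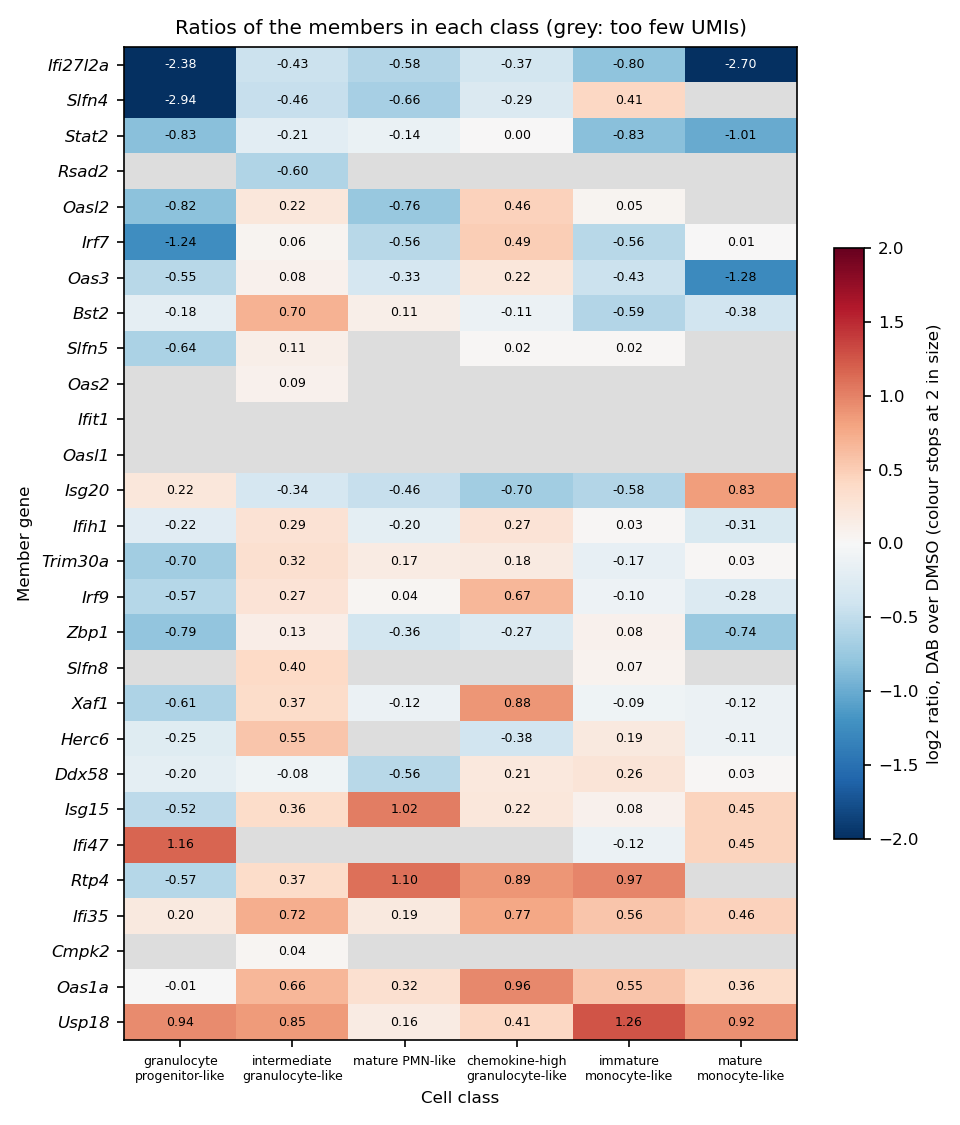
The log2 ratio of DAB over DMSO for each of the 28 members (rows, ordered by the ratio over all cells) in the 6 classes (columns), printed in each field and coloured blue where lower and red where higher in DAB, with grey where fewer than 100 UMIs were summed. Ifi27l2a is below 0 in all 6 columns and Usp18 above 0 in all 6, while Isg15, Isg20, Rtp4 and Bst2 change sign between columns.

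The classes differed in how many members were called. In mature monocyte-like cells 4 of 18 members were lower and 2 higher, against 18.9% lower and 17.4% higher of all genes, with a member median of -0.05. Besides Ifi27l2a and Stat2, Oas3 (-1.28) and Zbp1 (-0.74) were lower there, and Isg20 (0.83) was higher with Usp18. In immature monocyte-like cells 5 of 23 were lower and 4 higher, against 17.8% and 13.3% of all genes, with a median of 0.03. These cells were 1159 in DAB here, and fewer than 200 of the DAB cells carried the name in 4 of the 5 other clusterings, so the class rests on the clustering chosen.

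In intermediate granulocyte-like cells 1 of 25 members was lower and 5 were higher, against 13.8% and 25.3% of all genes, with a median of 0.22 beside 0.13 for all genes. The class joins clusters D (1019 DMSO and 512 DAB cells), O (117 and 393) and P (382 and 99), so different clusters hold its cells in each library. Cluster D had 9 of 26 members higher and a median of 0.42, beside 0.14 for all genes. Cluster O had 6 of 20 lower, none higher and a median of -0.17, beside 0.04 for all genes. P had under 100 cells of DAB. The share of all genes called in a single cluster was not computed, so these counts have no background. The 5 higher members of the class were Usp18, Bst2, Ifi35, Oas1a and Herc6. Bst2 was 47.2 CPM in DMSO and 76.8 CPM in DAB there (0.70, 0.54 to 0.86), the opposite direction to the immature monocyte-like cells (208 CPM and 138 CPM, -0.59). In chemokine-high granulocyte-like cells 1 of 21 was lower and 5 were higher, against 11.9% and 13.4% of all genes, with a median of 0.22 beside 0.03. The median was lower in each of the other clusterings, between -0.01 and 0.16. This class joins clusters F (147 DMSO and 967 DAB cells) and H (201 and 795), within which the member median was 0.11 and 0.32. The marker list of the class holds only chemokine genes, and Gpnmb was a leading gene of both clusters. The granulocyte part of the name is therefore less sure. The higher members were Oas1a (0.96), Rtp4 (0.89), Xaf1 (0.88), Ifi35 (0.77) and Irf9 (0.67), and the lower one was Isg20 (-0.70). The class had 2354786 UMIs in DMSO and 14049063 in DAB, so the 5 higher members passed the minimum through DAB. They had 23 to 52 UMIs in DMSO and 252 to 530 in DAB. The lower ends of their intervals, from 0.15 to 0.41, lay under the limit, so these calls are not firm. In the other clusterings Oas1a there lay between 0.46 and 0.91, Xaf1 between 0.44 and 0.82 and Irf9 between 0.26 and 0.84, so these members stayed above 0 and were not always called.

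In mature PMN-like cells 5 of 19 members were lower and 2 higher, against 7.76% and 12.9% of all genes, with a median of -0.14 beside 0.05. The class joins clusters E (379 DMSO and 958 DAB cells) and K (156 and 550), within which the member median was -0.22 and -0.28. The lower ones were Oasl2 (52.2 CPM in DMSO and 30.9 CPM in DAB, -0.76), Slfn4 (-0.66), Ifi27l2a (-0.58), Irf7 and Ddx58 (each -0.56). The upper ends of their intervals, from -0.42 to -0.10, fell short of the limit, so these calls are not firm. The higher ones were Rtp4 (1.10) and Isg15. Isg15 was 21.7 CPM (15.5 to 29.6) in DMSO and 44.0 CPM (38.8 to 49.6) in DAB there, a ratio of 1.02 that lay between 0.94 and 1.75 in the other clusterings. In those clusterings Oasl2 ranged from -0.96 to -0.04 and Irf7 from -0.45 to 0.30, so the direction of Irf7 in this class depends on the clustering. The call of Rtp4 rested on few DMSO UMIs, 22 beside 153 in DAB over the class (0.45 to 1.82). Of these, cluster E held 7 and 91 (2.09).

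Of the 6 classes, granulocyte progenitor-like cells held the most lower members, 13 of 22 with 2 higher. Of all genes, 16.8% were lower and 19.3% higher there, and the member median was -0.56. This class joined clusters J (574 DMSO and 233 DAB cells) and R (185 and 250), which differ in level and are mixed in unequal parts in the libraries. Within J the median was -0.38 and within R -0.31, beside 0.05 and -0.02 for all genes. In J 9 of 23 and in R 5 of 18 members were lower, counts without a background share. In J Slfn4 was 36.6 CPM in DMSO and 6.53 CPM in DAB (-2.49), and Ifi27l2a was 323 CPM and 99.0 CPM (-1.71). In R Ifi27l2a was 50.4 CPM and 6.50 CPM (-2.96) and Stat2 was 49.4 CPM and 17.0 CPM (-1.54). At a clustering resolution of 0.5 the class held 224 DMSO and 795 DAB cells and its median was 0.21, and in the other clusterings Slfn4 ranged from -0.57 to 1.32, so the direction of this class depends on where its border is drawn.

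Clusters without a name held 36.9% of DMSO and 28.2% of DAB cells and enter none of the 6 classes. Among them, cluster C (746 DMSO and 861 DAB cells) had 10 of 24 members lower and none higher, a count without a background share. Its median was -0.30 beside 0.04 for all genes, while unnamed cluster I had 0.02 beside 0.05. Over the 17 clusters with 100 cells or more of each library, the member median was below that of all genes in 12 and above it in 5. It ranged from -0.46 to 0.48.

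B cell-like cells, 140 in DMSO and 190 in DAB, stood on the other side. Their summed member level was 597 CPM (543 to 656) in DMSO and 943 CPM (888 to 1000) in DAB, a log2 ratio of 0.66 (0.50 to 0.82), and 0.99 without Ifi27l2a and Bst2. All 18 members with at least 10 UMIs had ratios above 0, with a median of 0.91, where 57.8% of 9174 genes did, with a median of 0.14. This minimum was lower than elsewhere. Some members reached it mainly through DAB, such as Slfn5 (1 UMI in DMSO and 12 in DAB) and Rtp4 (1 and 11). Oasl2 (3 and 2 UMIs) and Slfn4 (3 and 1) had ratios below 0 and fell under it. The minimum thus helped to shape the count of 18, which is a description only. At the 50 UMIs used for clusters, 5 members remained, with a median of 0.48 beside 0.07 for all genes. The intervals of some of the 18 reached below 0, as for Isg15 (0.17, lower end -1.18) and Irf7 (1.10, lower end -0.85). Zbp1 had 5 UMIs in DMSO and 27 in DAB, Slfn8 had 2 and 23, Ddx58 had 8 and 35, and Trim30a had 23 and 64. The B cell-like cells of the libraries differed in other ways: Igkc, an antibody light chain gene, was 3927 CPM in DMSO and 1719 CPM in DAB, Cd79a was 973 CPM and 1606 CPM, and S100a8, a neutrophil gene, was 2237 CPM and 655 CPM. The part of these in the result was not tested.

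Per cell, the list gave few UMIs. Each cell was reduced by random draw to 1500 UMIs, and 432 DMSO and 288 DAB cells with fewer were dropped. Then at least 3 member UMIs were held by 15.6% of the cells in DMSO (14.9 to 16.4) and 11.0% in DAB (10.4 to 11.7). Without Ifi27l2a the shares were 7.24% and 6.80%. Without thinning they were 68.2% and 67.1%. Cells with exactly 2 member UMIs were 14.6% and 12.8%, so many cells lie near the limit. The share was highest in intermediate granulocyte-like cells, at 24.5% in DMSO and 23.5% in DAB, and it was 13.8% and 6.82% in mature monocyte-like cells. At the same depth Ifi27l2a was seen in 22.9% of the cells in DMSO and 12.3% in DAB, and in 29.8% and 35.6% of B cell-like cells, which therefore cannot serve as its background. Slfn4 was seen in 5.26% and 3.94% of all cells and in 0% and 0.556% of B cell-like cells, and Usp18 in 1.77% and 2.70% of all cells and in 0% and 0.556%.

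**Figure D5:**
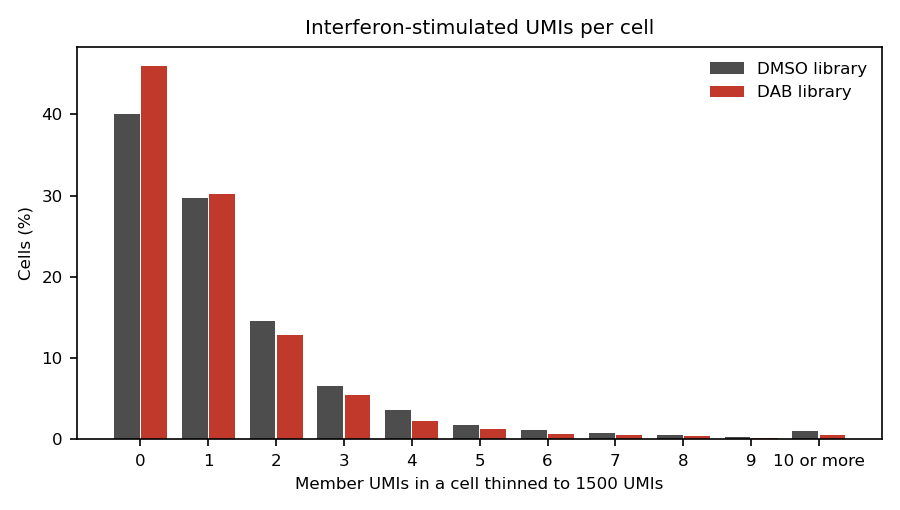
Percent of cells by their number of member UMIs after thinning to 1500 UMIs per cell, for the DMSO library (grey) and the DAB library (red). Cells without a member UMI were 40.1% in DMSO and 46.0% in DAB, and 1.01% and 0.521% held 10 or more.

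Part of the UMIs of the scarcest members lay together in a small number of cells. Of 8 scarce members (Ifit1, Ifit2, Ifit3, Ifit3b, Rsad2, Oasl1, Cmpk2 and Ifi44, a set chosen after their values were seen), at least 3 were found together in 17 of the 9023 cells in DMSO (0.188%, 0.110 to 0.301) and 21 of the 10460 in DAB (0.201%, 0.124 to 0.307). The shares differ by less than their counting error. These cells held 35.7% of the scarce UMIs in DMSO and 22.7% in DAB, and came from 10 and 9 clusters. The same genes picked the cells, which by itself raises these shares. Most scarce UMIs lay in cells with 1 scarce member (244 in DMSO, 409 in DAB) or 2 (28 and 31). The cells with at least 3 had a median UMI count of 8340 in DMSO and 10283 in DAB, near that of the other cells (7544.5 and 9532).

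In these few cells the other members stood high as well. Isg15 was 831 CPM in them and 19.4 CPM in the other DMSO cells, and 517 CPM and 22.8 CPM in DAB. Irf7 was 290 CPM and 16.3 CPM in DMSO, and 137 CPM and 12.6 CPM in DAB. Ifi27l2a was 1673 CPM and 253 CPM in DMSO, and 974 CPM and 119 CPM in DAB. The cell with the most scarce UMIs, in cluster J of DMSO, held 24 UMIs of Rsad2, 6 of Ifit1 and 42 of Isg15 among 8340 UMIs. The DAB cell with the most scarce UMIs, in cluster M, held 30 of Rsad2 and 1 of Ifit2 and none of the other scarce members, so it is not among the 21.

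The call of Rsad2, itself among the scarce members that picked these cells, depended on which rich cells were counted. Its 5 richest cells held 31.0% of its UMIs in DMSO and 36.1% in DAB. Without the cells that hold at least 3 scarce members, its log2 ratio was -0.28 (-0.65 to 0.09). The DAB cell of 30 Rsad2 UMIs was still counted there, and the ratio without it as well was not computed. With each cell weighing the same the ratio of Rsad2 was -0.15. The call held with classes at their pooled weight (-0.79) and with doublets kept (-0.51). Without the cells that hold at least 3 scarce members, Cmpk2 was at 0.54 and so passed the limit. Ifi27l2a (-1.09), Slfn4 (-0.68), Stat2 (-0.68) and Usp18 (0.87) then moved by at most 0.01.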

How the data were processed

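MDSC libraries (1 DAB, 1 DMSO) came from a 10x Genomics 5′ kit (v2). The authors counted UMIs with Cell Ranger 7.0.0 on mm10, and the deposited values are raw UMI counts per gene and barcode, before the authors' filters with Seurat 4.3.0 in R 4.1.2. The paper's cluster labels were not used here, and rebuilt names may differ from the study's.

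Barcodes over 10% mitochondrial UMIs were left out (55 DMSO, 89 DAB), and a limit of 4 median absolute deviations removed none. A score against simulated doublets removed 777 and 1082 barcodes, at 0.8% per 1000 cells. Pearson residuals (theta 100) of 3000 variable genes, without 173 interferon genes, had cell cycle and mitochondrial scores regressed out. They were reduced to 40 principal components, aligned by mutual nearest neighbours (k = 20, own code) and clustered with Leiden at 0.9. Clusters took the name of a marker list with at least 3 raised markers (log2 of 1 or more, 10 CPM added) and more of its own genes among the 10 leading genes than any other list. This naming rule was set after the clusters were seen, and 9 clusters stayed unnamed.

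Counts were summed per library and scaled to the total of the cells kept. A 5′ UMI is 1 molecule, so CPM was not divided by gene length. Genes needed 100 UMIs over both libraries (50 in clusters, and 10 for the median of the B cell-like cells). There was no test, because each condition has 1 library. Poisson, binomial and conditional intervals are exact at 95% and cover counting error only. The ratio, interval and thinning steps were tested on simulated data. All members were described. Pathway genes were named from 5 CPM, and of the wider list the 6 largest ratios each way. Members and lists were chosen with earlier results of these data known. Alternatives were other filters, scalings, weights, minimums, thinning depths and clusterings. Analysis used Python 3.11.15, numpy 2.4.6, scipy 1.17.1, scikit-learn 1.9.0, pandas 2.3.3, leidenalg 0.10.2, igraph 0.11.9 and matplotlib 3.10.9.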

Additional observations from a re-analysis of the deposited data

Results flagged for a closer look

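In 6 members the classes lay past the limit of 0.5 in opposite directions, which made them stand out, and with 1 library per condition this difference was not tested. Isg15 was lower in DAB in granulocyte progenitor-like cells (-0.52) and higher in mature PMN-like cells (1.02). Irf9 was lower in granulocyte progenitor-like cells (-0.57) and higher in chemokine-high granulocyte-like cells (0.67), and Xaf1 had the same pattern (-0.61 and 0.88). Isg20 was lower in chemokine-high granulocyte-like (-0.70) and immature monocyte-like cells (-0.58) and higher in mature monocyte-like cells (0.83). Rtp4 was lower in granulocyte progenitor-like cells (-0.57) and higher in chemokine-high granulocyte-like (0.89), immature monocyte-like (0.97) and mature PMN-like cells (1.10). Bst2 was lower in immature monocyte-like cells (-0.59) and higher in intermediate granulocyte-like cells (0.70). Some higher values rested on few DMSO UMIs and passed the minimum through DAB. In chemokine-high granulocyte-like cells Irf9 had 33 UMIs in DMSO and 314 in DAB, Xaf1 23 and 252 and Rtp4 23 and 254. In mature PMN-like cells Rtp4 had 22 and 153 and Isg15 40 and 262. The lower interval ends of Irf9 (0.15), Xaf1 (0.26) and Rtp4 (0.27 and 0.45) lay under the limit, so these calls are not firm.

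The values in granulocyte progenitor-like cells moved with the clustering. In the 3 other clusterings with enough of these cells, Isg15 lay between 0.22 and 0.32, Rtp4 between 1.17 and 1.78, Irf9 between -0.46 and 0.15 and Xaf1 between -0.12 and 0.25, so for these 4 of the 6 members the lower value past the limit was not met there. Isg20 in mature monocyte-like cells lay between 0.50 and 0.86, and in chemokine-high granulocyte-like cells between -0.90 and -0.70, in all 5 other clusterings. Bst2 in intermediate granulocyte-like cells lay between 0.42 and 0.73.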

How the results depend on the processing

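No paired analysis was possible because each condition has 1 library and the labels give no replicate numbers. The class medians changed sign in 4 of the 6 classes under some clusterings: in granulocyte progenitor-like cells from -0.56 to 0.21 at resolution 0.5, in mature PMN-like cells from -0.14 to 0.01 at resolution 0.5 and 0.06 with interferon genes kept, in immature monocyte-like cells from 0.03 to -0.11 at resolution 0.5, and in chemokine-high granulocyte-like cells from 0.22 to -0.01 with no alignment. Single members past the limit turned there too, Slfn4 from -2.94 to as high as 1.32 and Rtp4 from -0.57 to between 1.17 and 1.78. Over all cells no member past the limit changed direction. The count of lower members was 3 to 5 over the alternatives, and the count of higher members was 2 with doublets kept, 3 with each cell weighing the same, 2 with classes at their pooled weight and 2 without the cells rich in scarce members (the last chosen after seeing the data). The summed log2 ratio of -0.36 was -0.34 with doublets kept, -0.40 with each cell weighing the same, -0.26 with classes at their pooled weight, -0.12 without Ifi27l2a and -0.03 without Ifi27l2a and Bst2 (added after seeing the data). The shares of cells with at least 3 member UMIs (15.6% in DMSO and 11.0% in DAB) were 59.9% and 54.0% at 1 UMI, 5.41% and 3.44% at 5 UMIs, 35.0% and 26.6% at 3000 UMIs per cell, 68.2% and 67.1% without thinning, 7.24% and 6.80% without Ifi27l2a and 4.97% and 4.65% without Ifi27l2a and Bst2. With no alignment or with doublets kept, the granulocyte progenitor-like class had too few cells for a value, and the immature monocyte-like class had too few in those clusterings, at resolution 1.5 and with interferon genes kept. The cause of these shifts was not tested. Counts of 1 to 22 UMIs limit Ifit3, Ifit3b and Ifi44.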

Other observations

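Smaller classes repeated parts of the pattern, as values only. In activated dendritic cell-like cells (120 in DMSO and 54 in DAB) Stat2 was 62.2 CPM in DMSO and 17.6 CPM in DAB (log2 ratio -1.82, -2.57 to -1.14) and Ifi27l2a was 118 CPM and 38.8 CPM (-1.61). Bst2 was 501 CPM and 710 CPM there (0.50), the highest level of Bst2 in any named class, and Usp18 was 47.1 CPM and 82.8 CPM (0.81). Of Irf7 these cells held 8 UMIs in DMSO and 0 in DAB. In basophil or mast cell-like cells (111 and 624) Ifi27l2a was 108 CPM and 32.5 CPM (-1.74) and Stat2 was 31.6 CPM and 13.6 CPM (-1.22). Usp18 was 13.5 CPM and 23.5 CPM there (0.81, 0.15 to 1.54). It had 20 UMIs in DMSO and 315 in DAB and so passed the minimum through DAB. Most of this class was cluster N (81 DMSO and 554 DAB cells), with 3 of 7 markers raised and Il2ra and Cd200r3 as leading genes. Cluster X (30 and 70 cells) had 7 of 7 raised, with Prss34 and Mcpt8 leading. The values thus come mostly from cells whose name is less sure, with the clusters mixed in unequal parts.

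In macrophage-like cells (174 and 142) Ifi27l2a was 297 CPM in DMSO and 94.5 CPM in DAB (-1.65) and Bst2 was 247 CPM and 144 CPM (-0.78), while the members without these genes summed to 307 CPM and 329 CPM (0.10, -0.06 to 0.27). T or NK cell-like cells were 22 and 25, and their members summed to 51 UMIs in DMSO and 167 in DAB (0.70, 0.24 to 1.18), which is too few for single genes.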
